A study of Mus musculus with 48 samples.

Results

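Regulator of G protein signalling (RGS) genes were followed in primary mouse cells that carry a G protein biosensor. The set holds 10 genes, Rgs2, Rgs3, Rgs4, Rgs5, Rgs7, Rgs8, Rgs10, Rgs16, Rgs17 and Rgs20, listed by name and read from 50764 gene entries per count table. They were listed with earlier results of these data known, because Rgs2 and Rgs16 had been seen to move in opposite directions. The movement of that pair is therefore described here and is not independent support for it. Counts called among the 10 genes, set beside the share over all genes, likewise describe a chosen list. A heterotrimeric G protein signals while its alpha subunit holds GTP, and RGS proteins end the signal by speeding the hydrolysis of that GTP. Several RGS genes are themselves switched on or off within minutes to hours of receptor activation, so their mRNA is a known point of feedback. Most members of the R4 family, which includes Rgs2, Rgs3, Rgs4, Rgs5, Rgs8 and Rgs16, act on Gi and Gq alpha subunits, and Rgs2 prefers Gq.

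Poly-A RNA was sequenced from 48 libraries in 16 groups of 3. Each of 4 mouse lines was heterozygous for a BERKY3 allele, a sensor of the active form of Gas, Gai, Gaq or Ga13 that is silent until Cre recombinase acts, and each line is named here for that subunit. The Gas line gave primary brain astrocytes, and each of the Gai, Gaq and Ga13 lines gave primary lung fibroblasts. In every line the cells fell into 4 groups: agonist with Cre virus, agonist with empty virus, fresh medium with Cre virus, and fresh medium with empty virus. The agonist was 1 µM isoproterenol, a beta-adrenergic agonist, for astrocytes and 100 µM TRAP-6, a peptide agonist of the thrombin receptor PAR1, for fibroblasts, each for 90 min. The viruses were adeno-associated, with a CMV promoter, at a 500-fold dilution on astrocytes and a 1000-fold one on fibroblasts, and every library, controls included, received a virus and carried the allele. Cells without the allele were not analysed here, so an effect of Cre or its virus cannot be told apart from one of the biosensor. Replicates are known from the labels by number alone, and p-values therefore measure the spread between these samples, which may be technical.

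Library totals ran from 15.6 M to 42.6 M counts (M, 1000000), and levels are counts per 1000000 counts (CPM) of each library's total. The biosensor sequence was found in all 24 Cre libraries, at 19.1 to 27.3 CPM in the Gas line and 74.3 to 136.9 CPM in the 3 fibroblast lines. It had 0 to 1.05 CPM in all 24 empty-virus libraries, so the labels of the viruses held in every library. The 10 astrocyte markers summed to 8859 to 9729 CPM in the Gas line, and the 9 fibroblast markers to 28076 to 49024 CPM in the 3 fibroblast lines. The 4 Gai libraries numbered 1 stood apart. In 11.8% of the genes tested in that line they lay all below or all above the other 8 libraries, against 0.171% to 1.67% for the libraries of any other number in any line. Their 9 fibroblast markers summed to 39514 to 41920 CPM, against 28076 to 32978 CPM in the other 8 Gai libraries.

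Within each line edgeR's quasi-likelihood test was used. A call means a p below 0.05 after Benjamini-Hochberg adjustment over all genes tested. Fold changes are log2 ± standard error (SE). All 10 genes passed edgeR's filter on low counts in the Gas line. In the Gai line 7 passed, and Rgs4, Rgs7 and Rgs8 did not. In the Gaq line 9 passed, without Rgs7, and in the Ga13 line 8 passed, without Rgs7 and Rgs8.

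The stretches upstream of Rgs2 and Rgs16 are shown because these 2 genes carry the largest responses of the set. Both lie on chromosome 1, as do 7 of the 10 genes. The 250 bases before the start of each are given 5′ to 3′ on the gene's strand, from RefSeq on GRCm38.p6: Rgs2 at chr1:144004150-144004399 on the minus strand and Rgs16 at chr1:153740103-153740352 on the plus strand. Capitals mark the half-site of the cAMP response element, TGACG, and the CCAAT box, CCAAT, on either strand.
Rgs2: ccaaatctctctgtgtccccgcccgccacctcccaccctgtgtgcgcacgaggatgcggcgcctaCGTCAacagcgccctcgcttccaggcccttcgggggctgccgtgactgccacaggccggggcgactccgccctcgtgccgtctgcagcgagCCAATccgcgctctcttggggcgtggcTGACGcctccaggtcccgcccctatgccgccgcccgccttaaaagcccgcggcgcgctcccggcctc
Rgs16: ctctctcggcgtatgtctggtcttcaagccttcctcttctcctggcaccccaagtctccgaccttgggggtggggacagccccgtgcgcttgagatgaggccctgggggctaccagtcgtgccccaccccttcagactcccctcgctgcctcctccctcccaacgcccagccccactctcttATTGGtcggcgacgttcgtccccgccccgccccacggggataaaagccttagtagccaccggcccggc
Rgs2 held 2 half-sites, 63 and 181 bases before its start, and Rgs16 held none. Half-sites stood in 17.8% of 32851 mouse promoter windows of the same length. The 9 listed genes with a window had 12 windows, and 3 genes held a half-site in any of theirs: Rgs2, Rgs4 and Rgs8. This count is per gene, so it is not on the scale of the share per window. Rgs4 held 2 half-sites, as Rgs2 did, and Rgs8 held 1. With isoproterenol in astrocytes Rgs2 rose while Rgs4 and Rgs8 fell, as given below. A link of half-sites with direction was not tested. Rgs2 and Rgs16 each held 1 CCAAT box, which stood in 33.8% of all windows. The full element TGACGTCA was in no window of these genes and in 1.55% of all windows. These are letter matches and not binding sites.

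Levels of the 10 genes differed between astrocytes and fibroblasts. Per 1000 bases of annotated exon, the order by median in astrocytes was Rgs2, Rgs20, Rgs16, Rgs17, Rgs10, Rgs7, Rgs3, Rgs4, Rgs8 and Rgs5. Rgs2 stood at a median of 30.6 CPM per 1000 bases over 12 libraries (10.3 to 54.2), Rgs20 at 17.3 (15.6 to 20.4) and Rgs16 at 11.1 (2.54 to 28.6). Rgs5, a gene known as a marker of pericytes, was lowest at 1.17 (0.954 to 1.53). The ranges of neighbours in this order overlapped throughout.

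In all 3 fibroblast lines the order began with Rgs16, Rgs10, Rgs2, Rgs17, Rgs3 and Rgs5. Rgs16 stood at a median of 39.0 CPM per 1000 bases in the Gai line, 34.8 in Gaq and 27.1 in Ga13, with no overlap with Rgs10. Rgs10, at 4.34, 4.03 and 4.49 in the same lines, overlapped Rgs2 in the Gai and Gaq lines and lay apart from it in the Ga13 line. Rgs17 and Rgs3 overlapped in all 3 lines.

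Rgs2, Rgs3, Rgs4, Rgs5, Rgs7, Rgs8, Rgs17 and Rgs20 each had more CPM in every astrocyte library than in any fibroblast library. Rgs10 and Rgs16 overlapped between the cell types. The share of all genes that lie apart in this way is not given here. Values follow for Rgs7, Rgs20 and Rgs8. Rgs7, a member of the R7 family that works in a complex with the beta subunit Gnb5, had 15.3 to 22.3 CPM in the 12 astrocyte libraries. In fibroblasts it had no more than 0.352 CPM in any of the 36 libraries, with 43, 23 and 25 counts in all over the Gai, Gaq and Ga13 lines. Rgs20, a member of the RZ family that acts on Gz and Gi subunits, had 66.3 to 86.6 CPM in astrocytes and at most 1.02 CPM in fibroblasts. Rgs8, an R4 gene known from Purkinje neurons, had 9.09 to 18.4 CPM in astrocytes and at most 0.829 CPM in fibroblasts. These are separate lines and tables, so cell type, line and culture cannot be told apart in such differences. The astrocyte cultures also held markers of other neural cells. The 9 oligodendrocyte lineage markers summed to 874 to 1047 CPM there, against at most 96.0 CPM in fibroblasts. The 9 neuronal markers summed to 524 to 568 CPM, against at most 10.9 CPM. Which cells of the cultures held the listed genes was not tested.

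**Figure D1:**
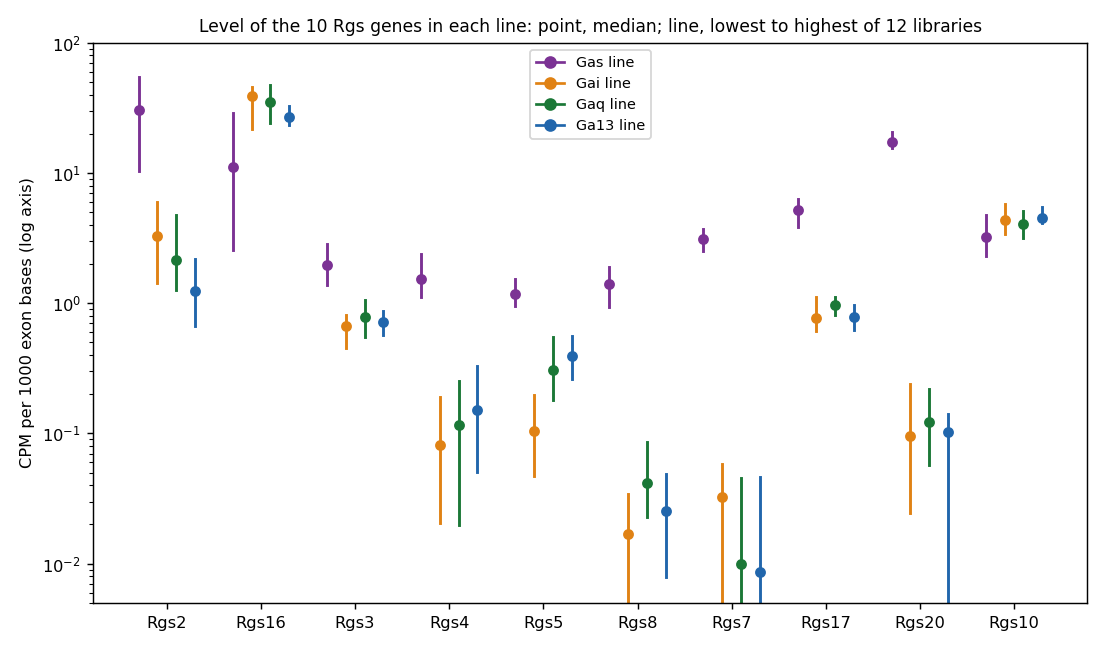
Level of each of the 10 Rgs genes in CPM per 1000 annotated exon bases, on a log axis, in the Gas (astrocyte), Gai, Gaq and Ga13 (lung fibroblast) lines. Points are medians and lines run from the lowest to the highest of 12 libraries, reaching the bottom of the axis where a library had 0 counts. In CPM not scaled between lines, all genes but Rgs10 and Rgs16 lie wholly higher in astrocytes. The gap is narrow for Rgs3 and wide for Rgs7, Rgs8 and Rgs20. The range of Rgs10 in astrocytes overlaps its range in each fibroblast line.

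Isoproterenol moved most of the listed genes in astrocytes. In the response averaged over both viruses 7 of 10 were called, 2 higher and 5 lower, where 23.3% of all 18103 genes tested were called, 11.7% higher and 11.5% lower. Rgs2 rose 4.36-fold and Rgs10 rose 1.39-fold. Rgs16 fell to 0.131 of its level in medium, and Rgs3, Rgs8, Rgs4 and Rgs17 fell less. The median log2 fold change of the 10 genes was -0.21, against -0.00 over all genes tested. With Cre virus alone 5 were called (14.3% of all genes), and with empty virus alone 6 (14.7%). As the genes were listed with earlier results known, these counts are not independent support for a response of the set.

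Single markers of other cell types also moved with isoproterenol in astrocytes, while the sums of their lists overlapped. Of 9 fibroblast markers, 1 of them at 0 in every library, Thy1 rose by 0.52 ± 0.05 and Pdgfra by 0.12 ± 0.04, and Pdgfrb fell by 0.93 on the log2 scale. Their sum was 1664 to 2067 CPM with isoproterenol, against 1683 to 2104 CPM with medium. Of 10 smooth muscle and pericyte markers Cnn1 rose by 0.94 ± 0.04, while Myh11 fell by 0.69 and Cspg4 by 0.27. That sum was 2535 to 2832 CPM with isoproterenol, against 2569 to 2864 CPM with medium. Of 9 neuronal markers Gad1 rose by 1.88 ± 0.10 and Tubb3 by 0.16 ± 0.05, and the sum was 531 to 567 CPM with isoproterenol, against 524 to 568 CPM with medium. Of 10 astrocyte markers 5 rose, and of 9 oligodendrocyte lineage markers Mbp and Cnp rose and Cspg4 fell. The 6 endothelial markers summed to 35.0 to 39.3 CPM with isoproterenol, against 32.6 to 40.9 CPM with medium. The part of these genes in the response of the listed ones was not tested.

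Rgs2, the R4 member that prefers Gq and is known to be induced by cAMP, had the highest response. With isoproterenol it had 196, 179 and 174 CPM under Cre and 181, 190.3 and 177 CPM under empty virus. In medium it had 43.6, 40.7 and 37.5 CPM under Cre and 47.0, 44.6 and 48.4 CPM under empty virus. The stimulated libraries were all above the unstimulated ones by a wide margin. This was a log2 fold change of 2.12 ± 0.04 (edgeR adjusted p = 1.34e-29), the sixth smallest p of the line.

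Rgs16, an R4 member that acts on Gi and Gq subunits, moved the other way. With isoproterenol it had 5.94, 7.99 and 9.27 CPM under Cre and 7.61, 6.34 and 7.33 CPM under empty virus. In medium it had 62.7, 49.0 and 67.0 CPM under Cre and 64.2, 42.8 and 66.5 CPM under empty virus. No stimulated library came near the lowest unstimulated one. Its log2 fold change was -2.93 ± 0.16 (edgeR adjusted p = 4.55e-07). In the gene models of the local annotation, 236 exon bases of Rgs16 overlap Gm28513 on the other strand. The strand setting of the counting is not given in the sources used here, so reads of the 2 genes cannot be told apart there.

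**Figure D2:**
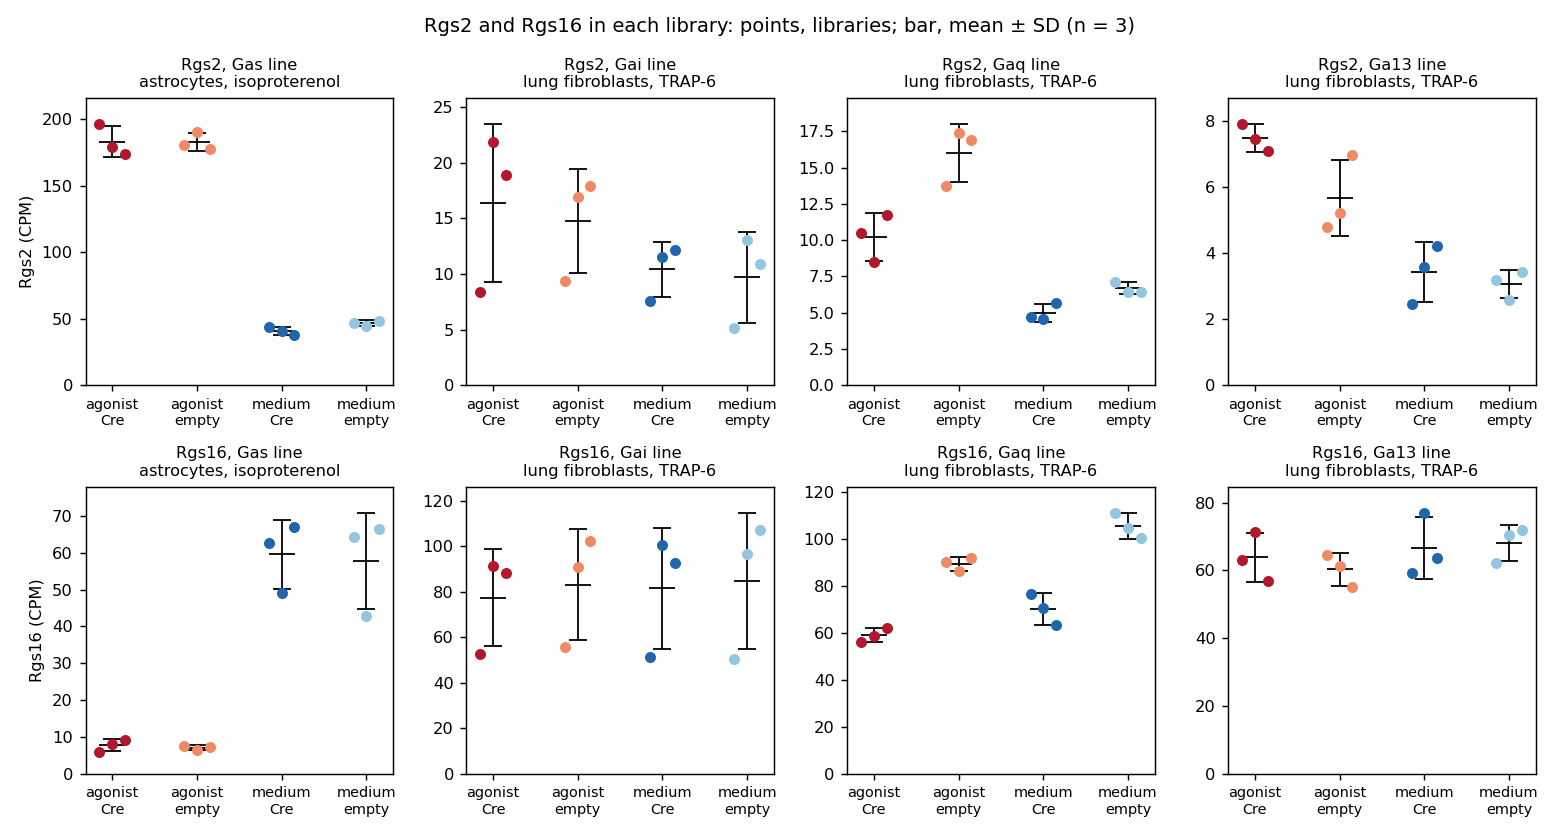
CPM of Rgs2 (top) and Rgs16 (bottom) in each of the 4 lines, with groups from left to right agonist with Cre, agonist with empty virus, medium with Cre and medium with empty virus. Points are single libraries and bars the mean ± SD (n = 3). In astrocytes Rgs2 is higher and Rgs16 lower with agonist, and in the Gaq line both are lower with Cre.

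Among the other R4 genes in astrocytes, Rgs3 and Rgs8 fell by similar amounts. Rgs3, which acts on Gi and Gq subunits, had 15.6, 18.6 and 16.3 CPM with isoproterenol and Cre and 14.8, 17.1 and 16.7 CPM with isoproterenol and empty virus. Without agonist it had 29.6, 28.1 and 30.6 CPM under Cre and 25.8, 24.2 and 30.0 CPM under empty virus. The groups with and without agonist did not overlap, and the log2 fold change was -0.71 ± 0.07 (edgeR adjusted p = 1.27e-10).

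Rgs8 had 10.6, 11.0 and 10.1 CPM with isoproterenol and Cre and 10.1, 9.09 and 10.5 CPM with isoproterenol and empty virus. With medium the 3 Cre libraries had 15.9 to 16.3 CPM and the empty-virus ones 18.4, 16.2 and 18.1 CPM. Stimulated and unstimulated libraries did not overlap, and the gene changed by -0.66 ± 0.08 on the log2 scale (edgeR adjusted p = 1.02e-08).

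Rgs4, an R4 gene of brain and heart that acts on Gi and Gq subunits, fell by a smaller margin. It had 3.45, 4.06 and 4.28 CPM with isoproterenol and Cre, against 5.09, 6.10 and 5.32 CPM with medium and Cre. With empty virus it had 3.88, 4.21 and 5.10 CPM with isoproterenol, against 4.41, 7.34 and 5.40 CPM with medium. The groups overlapped under empty virus and not under Cre. The log2 fold change of -0.37 ± 0.13 was near the threshold (edgeR adjusted p = 0.0391). The call was lost, with an adjusted p up to 0.180, when any 1 of 7 libraries was left out: agonist with empty virus replicates 1 and 2, agonist with Cre replicates 1 and 2, medium with empty virus replicate 2, or medium with Cre replicates 2 and 3.

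Rgs5 gave no call in astrocytes. It averaged 5.43 ± 1.02 CPM with isoproterenol and Cre and 5.66 ± 1.24 CPM with isoproterenol and empty virus, against 5.23 ± 0.205 CPM with medium and Cre and 5.37 ± 1.15 CPM with medium and empty virus (SD, n = 3 each). The groups overlapped, and the 95% interval of the log2 fold change was -0.16 to 0.37.

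The RZ genes moved little in astrocytes. Rgs17, which like Rgs20 acts on Gz and Gi subunits, had 35.4, 32.7 and 42.7 CPM with isoproterenol and Cre and 38.9, 32.0 and 36.6 CPM with isoproterenol and empty virus. Medium alone gave 48.9, 43.5 and 44.8 CPM under Cre and 52.3, 45.7 and 46.7 CPM under empty virus. The highest stimulated library lay just below the lowest unstimulated one, and the log2 fold change was -0.32 ± 0.06 (edgeR adjusted p = 0.000288). Rgs20 averaged 72.6 ± 1.48 CPM with isoproterenol and Cre and 69.6 ± 3.11 CPM with isoproterenol and empty virus, against 76.8 ± 4.99 CPM with medium and Cre and 80.3 ± 6.11 CPM with medium and empty virus (SD, n = 3 each). Its log2 fold change of -0.10 ± 0.04 did not pass (edgeR adjusted p = 0.123). In the local annotation 252 exon bases of Rgs20 overlap Gm17101 or Atp6v1h, and 70 of Rgs8 overlap Gm29529, so their counts are uncertain to that extent.

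Rgs10 was the other gene that rose in astrocytes. It is a small R12 family protein that acts on Gi subunits and is known from microglia. It had 5.59, 6.12 and 8.13 CPM with isoproterenol and Cre, against 5.03, 5.59 and 4.95 CPM with medium and Cre. With empty virus it had 5.25, 7.20 and 6.80 CPM with isoproterenol, against 5.48, 4.09 and 3.97 CPM with medium. The groups overlapped at their edges under both viruses, and the log2 fold change was 0.47 ± 0.12 (edgeR adjusted p = 0.00428). The 9 microglia and macrophage markers, all detected, summed to 167 to 184 CPM with isoproterenol and Cre and 172 to 179 CPM with isoproterenol and empty virus. In medium they summed to 171 to 186 CPM under Cre and 167 to 180.3 CPM under empty virus, so their ranges overlapped. Of the 9, Adgre1 rose by 0.15 ± 0.05 and Cx3cr1 fell by 0.18 on the log2 scale. In such bulk RNA, more cells of a type and more RNA per cell cannot be told apart.

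Rgs7, which acts on Gi and Go subunits, gave no call in astrocytes. It averaged 19.1 ± 0.333 CPM with isoproterenol and Cre and 18.0 ± 1.08 CPM with isoproterenol and empty virus, against 18.4 ± 3.60 CPM with medium and Cre and 18.4 ± 2.51 CPM with medium and empty virus (SD, n = 3 each). The 95% interval of its log2 fold change was -0.11 to 0.22. Of the 5 R7 partners, Rgs7bp, which anchors R7 proteins to the membrane, rose by 1.26 ± 0.08 and Gnb5 rose by 0.15 ± 0.05. Rgs7bp had 21.6, 21.6 and 25.8 CPM with isoproterenol and Cre and 23.2, 22.0 and 24.4 CPM with isoproterenol and empty virus. It had 9.44, 9.77 and 9.63 CPM with medium and Cre and 10.4, 12.2 and 8.75 CPM with medium and empty virus, with no overlap between stimulated and unstimulated libraries.

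**Figure D3:**
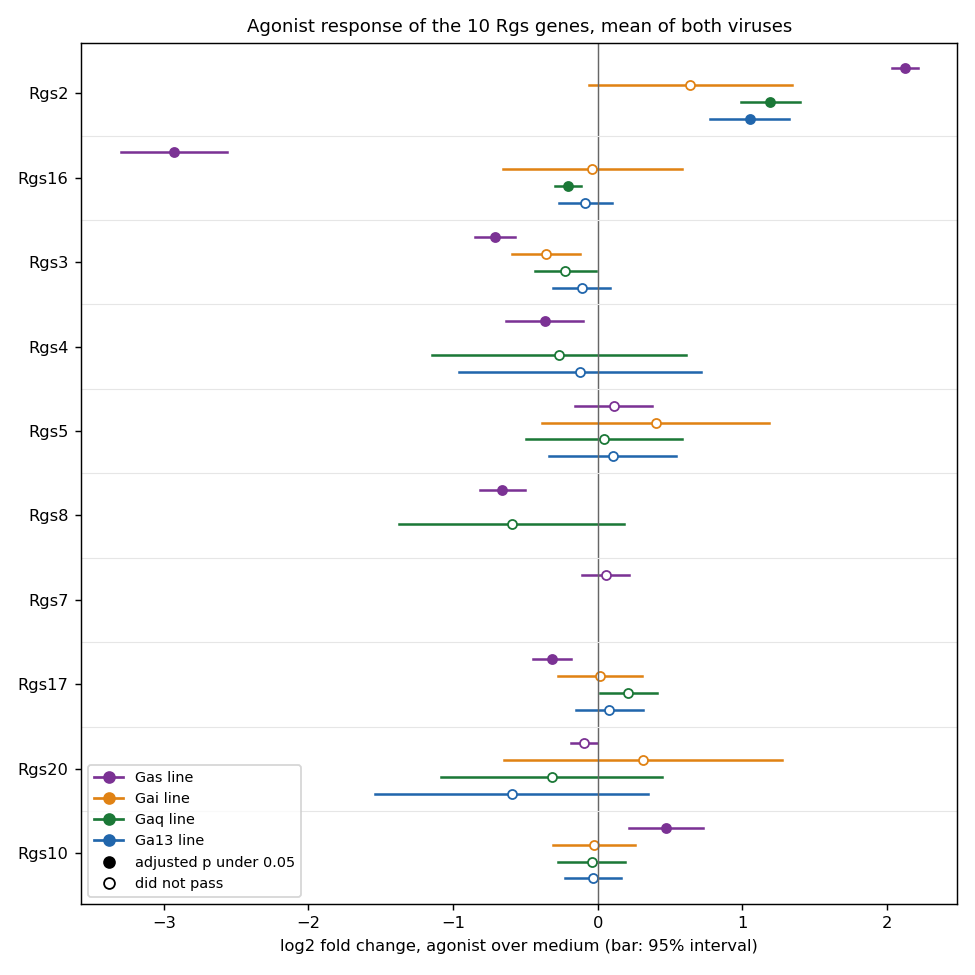
Log2 fold change of each Rgs gene between agonist and medium, averaged over both viruses, with its 95% interval, for each of the 4 lines. Filled points passed an adjusted p of 0.05 and genes that did not pass the filter on low counts have no point. Rgs2 lies right of 0 in all 4 lines, and Rgs16 lies far to the left in astrocytes (-2.93) and close to 0 in fibroblasts.

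In fibroblasts TRAP-6 moved Rgs2 and little else in the set. In the Gaq line Rgs2 rose and Rgs16 fell, 2 of 9 genes tested where 5.61% of all genes were called. In the Ga13 line Rgs2 rose, 1 of 8 where 8.38% were called. Over all 12 libraries of the Gai line, with 1 mean per group, none of 7 was called with edgeR, where 1.12% of all genes were. Rgs3 passed an unadjusted p of 0.05 there, and DESeq2 called none.

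In Gaq fibroblasts Rgs2 had 10.5, 8.47 and 11.7 CPM with TRAP-6 and Cre and 13.7, 17.4 and 16.9 CPM with TRAP-6 and empty virus. In medium it had 4.68, 4.58 and 5.65 CPM under Cre and 7.14, 6.42 and 6.44 CPM under empty virus. All stimulated libraries were above all unstimulated ones. Rgs2 thus changed by 1.19 ± 0.10 on the log2 scale (edgeR adjusted p = 1.28e-10).

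Rgs16 in the same line had 56.3, 58.6 and 62.4 CPM with TRAP-6 and Cre, against 76.7, 70.6 and 63.4 CPM with medium and Cre. With empty virus it had 90.2, 86.3 and 91.9 CPM with TRAP-6, against 111, 105 and 101 CPM with medium. The groups did not overlap under either virus, although the margin under Cre was narrow. The log2 fold change was -0.21 ± 0.04 (edgeR adjusted p = 0.00167), so the opposite directions of Rgs2 and Rgs16 in astrocytes were also seen here, with a much smaller fall of Rgs16.

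In Ga13 fibroblasts Rgs2 had 7.92, 7.46 and 7.09 CPM with TRAP-6 and Cre and 4.80, 5.23 and 6.97 CPM with TRAP-6 and empty virus. Without agonist Rgs2 had 2.44, 3.59 and 4.23 CPM under Cre and 3.19, 2.58 and 3.42 CPM under empty virus. The groups did not overlap, and the log2 fold change was 1.05 ± 0.13 (edgeR adjusted p = 3.78e-07). Rgs16 had 63.2, 71.4 and 56.9 CPM with TRAP-6 and Cre, against 59.2, 77.0 and 63.7 CPM with medium and Cre. With empty virus it had 64.6, 61.4 and 55.0 CPM with TRAP-6, against 62.1, 70.6 and 71.8 CPM with medium. These overlapped, with a log2 fold change of -0.09 ± 0.08 and a 95% interval of -0.27 to 0.10.

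In Gai fibroblasts the libraries numbered 1 set the spread of both genes. Rgs2 had 8.39, 21.9 and 19.0 CPM in replicates 1, 2 and 3 with TRAP-6 and Cre and 9.36, 16.9 and 18.0 CPM with TRAP-6 and empty virus. In medium it had 7.57, 11.5 and 12.2 CPM under Cre and 5.15, 13.1 and 10.9 CPM under empty virus. In each group replicate 1 was the lowest. The log2 fold change over all 12 libraries was 0.64 ± 0.31 and did not pass (edgeR adjusted p = 0.568). Without the 4 libraries numbered 1, an alternative chosen after seeing the data, it was 0.66 and Rgs2 was called (edgeR adjusted p = 2.68e-06). Among the libraries numbered 1 it had 8.39 and 9.36 CPM with TRAP-6, against 7.57 and 5.15 CPM with medium, and among the other 8 it had 16.9 to 21.9 CPM with TRAP-6, against 10.9 to 13.1 CPM with medium. Within each of these sets the stimulated libraries were all above the unstimulated ones.

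Rgs16 in the Gai line lay at 50.5 to 55.7 CPM in all 4 libraries numbered 1 and at 88.3 to 107 CPM in the other 8, whatever the virus or agonist. It averaged 77.4 ± 21.4 CPM with TRAP-6 and Cre and 83.0 ± 24.4 CPM with TRAP-6 and empty virus, against 81.5 ± 26.5 CPM with medium and Cre and 84.7 ± 30.1 CPM with medium and empty virus (SD, n = 3 each). The log2 fold change was -0.04 ± 0.27. Rgs3 in this line had 7.56, 5.89 and 5.34 CPM with TRAP-6 and Cre, against 7.99, 7.31 and 7.22 CPM with medium and Cre. With empty virus it had 6.70, 4.91 and 5.48 CPM with TRAP-6, against 7.66, 7.70 and 8.77 CPM with medium. Its log2 fold change of -0.36 ± 0.11 did not pass (edgeR adjusted p = 0.181). Without the libraries numbered 1 it was -0.51 and was called (edgeR adjusted p = 0.00754). With the block for replicate number Rgs3 was called at -0.36 (edgeR adjusted p = 0.0277). Whether what sets these 4 libraries apart bears on either gene was not tested.

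**Figure D4:**
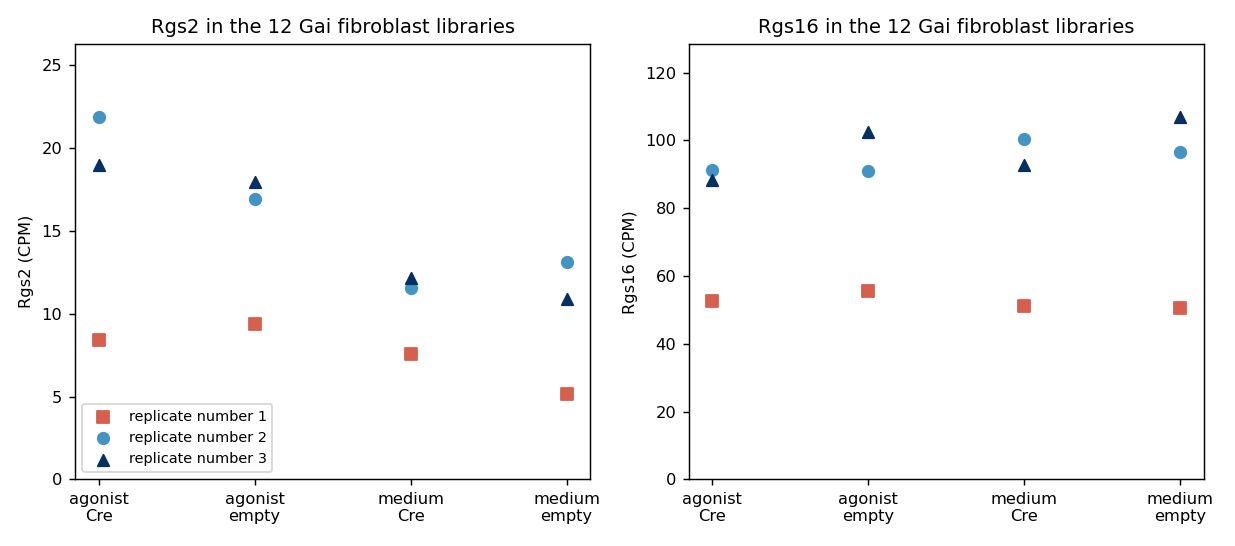
CPM of Rgs2 (left) and Rgs16 (right) in the 12 Gai fibroblast libraries by group, with the replicate number of the labels as the symbol. The libraries numbered 1 (squares) lie lowest in every group, at 50.5 to 55.7 CPM for Rgs16 against 88.3 to 107 CPM in the others.

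The remaining genes tested gave no call to TRAP-6 in any fibroblast line. Rgs10, Rgs17 and Rgs5 had log2 fold changes between -0.04 and 0.40. Rgs17 in the Gaq line, at 0.21 ± 0.10, and Rgs3 in that line, at -0.22 ± 0.10, passed an unadjusted p of 0.05 but not the adjusted one (edgeR adjusted p = 0.273 and 0.271). Rgs4, Rgs8 and Rgs20 were scarce, with 37 to 153 counts over the 12 libraries of a fibroblast line, and their intervals were wide: the log2 fold change of Rgs20 in the Ga13 line had a 95% interval of -1.54 to 0.35. At this depth a difference in such genes was not detectable unless large.

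The response to isoproterenol in astrocytes was also set against the mean response to TRAP-6 of the 3 fibroblast lines, in a fit of all 48 libraries with 19316 genes tested. Of the 10 genes 5 differed, where 14.8% of all genes did. The list was made with earlier results known, so this count too is a description. Rgs2, by 1.16 ± 0.18, and Rgs10, by 0.50 ± 0.14, had the higher response in astrocytes. Rgs16, by -2.82 ± 0.23, Rgs3, by -0.48 ± 0.10, and Rgs17, by -0.42 ± 0.11, had the lower response there (edgeR adjusted p between 3.67e-12 and 0.00925). Agonist, cell type and line change together in this comparison and cannot be told apart. Between the fibroblast lines, in a fit of all 36 libraries with 1 mean per group, none of 9 genes tested was called in the TRAP-6 response with edgeR, at an adjusted or an unadjusted p of 0.05, and DESeq2 called none. The share called over all genes was 0.137% for Gaq against Gai, 0.316% for Ga13 against Gai and 0% for Ga13 against Gaq. With a block for replicate number Rgs2 was called for Gaq against Gai, at 0.56 (edgeR adjusted p = 0.0283).

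Cre virus against empty virus moved listed genes in the Gaq line alone among the calls made within lines. There Rgs16 fell both with and without TRAP-6, and Rgs2 fell with TRAP-6. With agonist 2 of 9 genes were called, both lower, where 3.41% of all genes were called, 1.42% lower. Without agonist 1 of 9 was called, again lower, where 2.65% were called, 1.37% lower. Between the viruses, therefore, Rgs2 and Rgs16 did not move in opposite directions in this line.

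Rgs16 in the Gaq line with TRAP-6 had 56.3, 58.6 and 62.4 CPM under Cre, against 90.2, 86.3 and 91.9 CPM under empty virus. Without agonist Rgs16 had 76.7, 70.6 and 63.4 CPM under Cre, against 111, 105 and 101 CPM under empty virus. Neither pair of groups overlapped. Rgs16 changed by -0.59 ± 0.06 on the log2 scale with agonist (edgeR adjusted p = 1.09e-07) and -0.58 ± 0.06 without (edgeR adjusted p = 2.82e-07), which by p ranked 13 and 5 among 15528 genes.

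Rgs2 in the Gaq line, by the values given above, lay at 8.47 to 11.7 CPM with TRAP-6 and Cre, against 13.7 to 17.4 CPM with TRAP-6 and empty virus. In medium it lay at 4.58 to 5.65 CPM under Cre, against 6.42 to 7.14 CPM under empty virus. Both pairs of groups were apart. The log2 fold change was -0.65 ± 0.13 with agonist (edgeR adjusted p = 0.00242) and -0.42 ± 0.15 without, which did not pass (edgeR adjusted p = 0.172). Averaged over both states, a contrast added after seeing the data, Rgs2 fell by 0.53 and Rgs16 by 0.59 on the log2 scale (edgeR adjusted p = 0.00048 and 2.9e-11), where 6.50% of all genes were called.

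Fibroblast and smooth muscle markers moved with Cre in the same line. With TRAP-6, 5 of 9 fibroblast markers rose with Cre, and their sum was 41825 to 46852 CPM under Cre, against 36373 to 36884 CPM under empty virus. Without it 3 of 9 rose, and the sum was 42233 to 45179 CPM under Cre, against 36747 to 39347 CPM under empty virus. Of 10 smooth muscle and pericyte markers with TRAP-6, Acta2, Notch3 and Myh11 rose and Cspg4 fell, by 0.76 on the log2 scale. Their sum was 2044 to 2326 CPM under Cre, against 1970 to 2025 CPM under empty virus. Without TRAP-6 Cspg4 fell by 0.31, and the sums overlapped, at 1887 to 1993 CPM under Cre and 1862 to 1978 CPM under empty virus. The mesothelial marker Upk3b, 1 of 5, rose by 0.39 ± 0.06 with TRAP-6 and by 0.34 ± 0.06 without. The 5 mesothelial markers summed to 514 to 561 CPM with TRAP-6 and Cre, against 381 to 469 CPM with TRAP-6 and empty virus. In medium they summed to 466 to 529 CPM under Cre, against 363 to 453 CPM under empty virus. The part of these markers in the fall of Rgs16 and Rgs2 was not tested.

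In the other 3 lines no listed gene was called between the viruses. In astrocytes the share of all genes called was 0.0166% with and 0.00552% without agonist, and Rgs2 without agonist was the only listed gene with an unadjusted p under 0.05, at -0.21 ± 0.06 (edgeR adjusted p = 0.591). In the Gai line edgeR called 0% of all genes in both states, DESeq2 called 2 genes with and 1 without agonist, and no listed gene reached an unadjusted p of 0.05. In the Ga13 line 0.0379% of all genes were called with agonist and 0.00632% without. There Rgs2 with TRAP-6 was at 0.39 ± 0.18 and Rgs20 at 2.11 ± 0.70, both under an unadjusted p of 0.05 (edgeR adjusted p = 0.587 and 0.377). Rgs20 had 0.485, 0.599 and 0.563 CPM with TRAP-6 and Cre, against 0.209, 0.172 and 0 CPM with TRAP-6 and empty virus, from 55 and 7 counts in all. DESeq2 called no listed gene in these 3 lines.

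**Figure D5:**
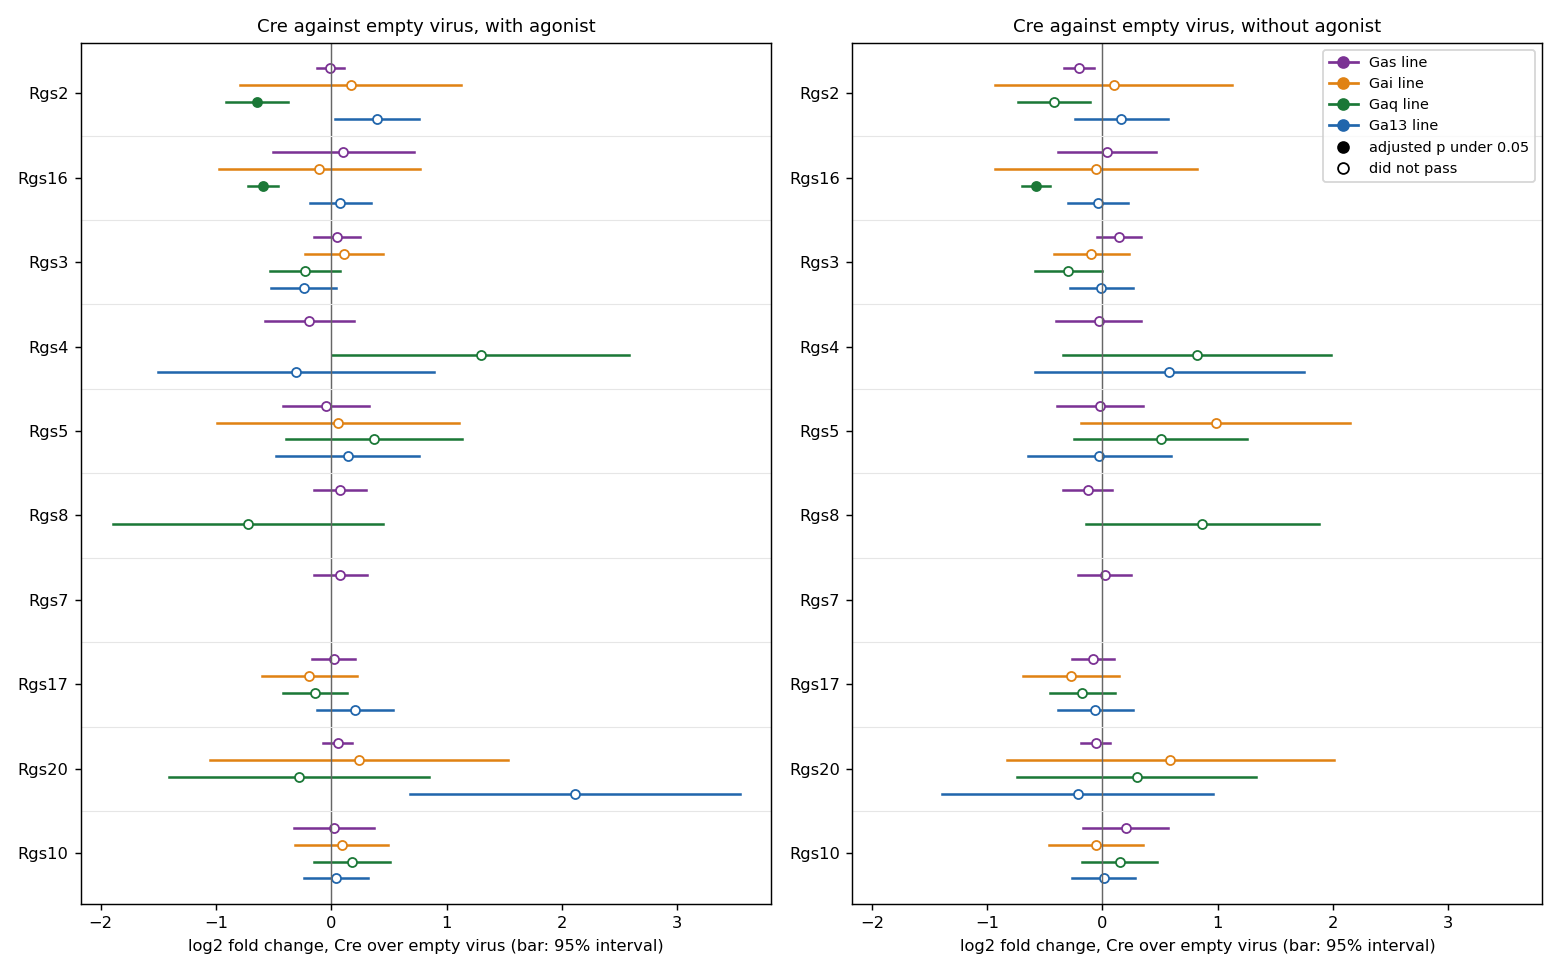
Log2 fold change of each Rgs gene between Cre and empty virus with agonist (left) and without (right), with 95% intervals, in the 4 lines. Filled points passed an adjusted p of 0.05. The filled points are Rgs16 of the Gaq line in both panels (-0.59 and -0.58) and Rgs2 of the Gaq line with agonist (-0.65).

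The effect of Cre was also compared between fibroblast lines, in a fit of all 36 fibroblast libraries. With 1 mean per group, none of 9 listed genes was called with edgeR or DESeq2 in the 3 comparisons with agonist or the 3 without. Of all genes edgeR called 0.0299% with and 0.0239% without agonist for Gaq less Gai, and 0% for Ga13 less Gai in both states and for Ga13 less Gaq without agonist. Rgs2 and Rgs16, the genes called between the viruses in the Gaq line, differed in Ga13 less Gaq with agonist by 1.04 ± 0.42 and 0.67 ± 0.34 (edgeR adjusted p = 0.546 and 0.687), where 0.143% of all genes were called. With the 24 libraries of these 2 lines alone, a fit added after seeing the data, they were 1.03 and 0.67 and both were called (edgeR adjusted p = 0.00625 and 0.0232). They were also called with all Gai libraries except the 4 numbered 1 in the fit (edgeR adjusted p = 0.00196 and 0.0130). At an unadjusted p of 0.05 the counts were 2, Rgs2 and Rgs20, for that comparison, 1, Rgs8, for Gaq less Gai without agonist, and 0 for the other 4.

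Whether Cre altered the agonist response was tested as a difference of responses within each line. No listed gene was called with edgeR or DESeq2, where edgeR called 0% of all genes in the Gas and the Gai line, 0.161% in Gaq and 0.0821% in Ga13. Unadjusted p-values under 0.05 were given by Rgs2 in astrocytes (0.20 ± 0.09), Rgs8 in the Gaq line (-1.59 ± 0.76) and Rgs20 in the Ga13 line (2.33 ± 0.92), and by none in the Gai line. Rgs8 in the Gaq line had 0.234, 0.309 and 0.220 CPM with TRAP-6 and Cre, against 0.703, 0.558 and 0.829 CPM with medium and Cre. With empty virus it had 0.490, 0.328 and 0.473 CPM with TRAP-6, against 0.557, 0.287 and 0.316 CPM with medium. For Rgs16 the 95% interval of the difference of responses was -0.68 to 0.81 in astrocytes and -0.19 to 0.16 in the Gaq line.

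Other genes of the pathway were taken from 6 lists chosen with earlier results of these data known. In astrocytes 21 of the 67 tested were called in the isoproterenol response, where 23.3% of all genes were, so the lists as a whole are not set apart by this count. Of 12 other RGS genes 7 were tested there, and Rgs1, an R4 gene of leukocytes, rose by 1.19 ± 0.17 while Rgs12 fell by 0.15. Rgs1 had 6.09, 4.03 and 4.12 CPM with isoproterenol and Cre and 5.35, 4.45 and 4.46 CPM with isoproterenol and empty virus. It had 2.08, 1.95 and 1.91 CPM with medium and Cre and 3.30, 2.35 and 1.34 CPM with medium and empty virus. The stimulated libraries were all above the unstimulated ones.

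Of 15 proteins with an RGS homology domain, 14 were tested in astrocytes, where 1 rose and 3 fell, with Axin2, an inhibitor of Wnt signalling, down by 1.14. Axin2 had 11.2, 13.5 and 13.1 CPM with isoproterenol and Cre and 12.1, 13.1 and 11.0 CPM with isoproterenol and empty virus. It had 28.6, 26.2 and 28.3 CPM with medium and Cre and 27.0, 28.4 and 29.8 CPM with medium and empty virus, with no overlap. Of 16 alpha subunits, 15 were tested and 3 rose and 1 fell, with Gna14, a Gq family subunit, up by 0.54 ± 0.09. Of 16 beta and gamma subunits, 13 were tested and 2 rose, with Gng4 up by 2.27 ± 0.19. Of 14 other regulators of the nucleotide state, 13 were tested and 3 rose and 4 fell, with Ric8b, a chaperone of Gs family subunits, up by 0.42 ± 0.06.

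In fibroblasts the TRAP-6 response of these lists held 0 calls of 60 genes tested in the Gai line with edgeR, where 1.12% of all genes were called and 4 of the 60 had an unadjusted p under 0.05. It held 1 of 59 in the Gaq line, where 5.61% of all genes were called, and 1 of 58 in the Ga13 line, where 8.38% were. In the Gaq line Axin1 rose by 0.17 ± 0.04 with TRAP-6, and Gnb4, 1 of 59 where 3.41% of all genes were called, fell by 0.33 with Cre in the presence of TRAP-6. In the Ga13 line Plcb4, a phospholipase that is both a target and a regulator of Gq, rose by 0.17 ± 0.05.

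The genes whose pattern was most like those of Rgs2 and Rgs16 were sought among 12531 genes over the 16 group means, as log2 CPM centred within each line. For Rgs2 these were Irs2, with a Pearson correlation of 0.981, Usp2, Sik2, Fosb and Dusp14 (0.969). For Rgs16 they were Tent4a (0.988), Myo1c, Tnfrsf12a, Rin1 and Erf (0.983). The correlation of Rgs2 with Rgs16 on this measure was -0.77. The group means of a line share libraries and scaling, and the 4 astrocyte groups held 61.0% of the sum of squares of Rgs2 and 95.1% of that of Rgs16, so for Rgs16 the likeness describes astrocytes almost alone.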

How the data were processed

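For each line the authors deposited 1 table of raw counts of reads over genes, from poly-A libraries. The submitters' processing notes name fastp, Subread, featureCounts and the build GRCm39. Tool versions, annotation and strand setting are not given in the sources used here.

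The biosensor entry was left out of the fits. In R 4.3.3 each line's 12 libraries were fitted with edgeR 4.0.16 (filterByExpr, TMM scaling, robust quasi-likelihood F test, two-sided, 1 mean per group), and calls used a Benjamini-Hochberg adjusted p under 0.05 over 15528 to 18103 genes. Joint fits of 36 fibroblast and all 48 libraries compared lines. CPM used the deposited totals of 15.6 M to 42.6 M counts. Exon lengths and overlaps came from an annotation of GRCm38, used for lengths and names only. Alternatives were scaling by DESeq2's size factors in edgeR, no filter, DESeq2 1.42.0, a replicate block and leaving out each library. The fits were tested on simulated data.

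All 10 genes are named. Values are given per sample for genes called in a line, and each other list gives its counts and its called gene of largest change. Likeness used log2 CPM with a pseudocount of 0.5 and a mean CPM of at least 1. The genes and lists were chosen with earlier results of these data known. No 2 libraries of a group held identical counts.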

Additional observations from a re-analysis of the deposited data

Results flagged for a closer look

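The agonist response of 5 genes differed between astrocytes given isoproterenol and the mean of the 3 fibroblast lines given TRAP-6, by edgeR's test of the difference itself over 48 libraries. Rgs2 differed by 1.16 and Rgs10 by 0.50 on the log2 scale, higher in astrocytes. Rgs16 differed by -2.82, Rgs3 by -0.48 and Rgs17 by -0.42, lower in astrocytes. All 5 were also called by DESeq2 and with a replicate block. Agonist, cell type and line cannot be told apart.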

How the results depend on the processing

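Over 36 called values of single genes and 761 alternative results for them, 735 kept their direction and their side of the threshold, 26 kept the direction but missed the threshold, and 0 turned round. The 26 were Rgs4 in astrocytes (7), given in the report, Rgs17 in astrocytes with Cre alone (6), Rgs10 in astrocytes with empty virus alone (4), and Rgs16 in the Gaq line with Cre alone (9, with RLE scaling at an adjusted p of 0.0522 and DESeq2 at 0.0728 among them).

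The labels do not say what the shared replicate numbers mark, and the numbers were not taken as pairs, since not every correlation of same-numbered deviations was over 0.1: those over it numbered 1 of 18 in the Gas line, 8 of 18 in Gai and 0 of 18 in Gaq and Ga13, while 11, 5, 9 and 11 of 12 libraries correlated best with their own number, a hint of pairing from the data and not from the design. With a replicate block the Gai response held 2 calls, Rgs2 (0.64, edgeR adjusted p = 2.79e-06) and Rgs3 (-0.36, 0.0277), as it did without the libraries numbered 1. In the joint fit the block gave 1 call for Gaq less Gai in the TRAP-6 response (Rgs2, 0.56), 1 in the Cre effect without agonist (Rgs16, -0.53) and 1 with agonist (Rgs2, -0.75). It gave 1 for Ga13 less Gaq without agonist (Rgs16, 0.53) and 2 with agonist (Rgs2, 1.05, and Rgs16, 0.67). Without the Gai libraries numbered 1 the counts with agonist were 1 for Gaq less Gai (Rgs2, -0.87) and 2 for Ga13 less Gaq (Rgs2, 1.04, and Rgs16, 0.67). Leaving out single libraries gave 0 calls throughout in these comparisons, as in the full fits. Over all genes the Gai response held 179 calls, against 293 with DESeq2, 445 with no filter and 797 with the block. The cause of these gained calls was not tested. Depth limits what can be seen of Rgs4, Rgs7, Rgs8 and Rgs20 in fibroblasts.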
